A study of Homo sapiens with 3 samples.

Results

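The genes described are members of the interleukin 1 (IL-1) family with their receptor chains, the cytokine gene IL32 and the colony-stimulating factors, in A498 cells 4 h after the addition of E. coli 83972 or of DRB. They were chosen by symbol, as IL1A, IL1B, IL1RN, IL18, IL32, IL1R1, IL1RAP, CSF1, CSF2 and CSF3, which is 10 genes beside 18239 genes measured in all. Of these, 9 had a probe set annotated to 1 gene, 18 probe sets in total. CSF2, which encodes GM-CSF, had none and is not analysed here.

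A498 is an established epithelial line from a human kidney carcinoma, and E. coli 83972 is a strain carried in the urinary tract without symptoms. DRB is an inhibitor of the kinase CDK9, without which RNA polymerase II does not elongate productively. The 3 groups were cells with E. coli 83972, cells with 60 µM DRB and control cells with 0.08% DMSO, all kept for 4 h in serum-free medium with gentamicin, with 1 array each. The labels mention DMSO for the control alone and give conflicting bacterial concentrations, so DMSO and either treatment cannot be told apart and no bacterial dose is stated. Every difference below therefore compares single arrays, with no replicate check and no p-value.

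IL-1α and IL-1β, the products of IL1A and IL1B, are proinflammatory cytokines that bind the receptor chain IL1R1, which then recruits the accessory chain IL1RAP and signals through MyD88 and IRAK kinases to NF-κB. The receptor antagonist encoded by IL1RN occupies IL1R1 without signalling. IL-1β and IL-18 are made as precursors that caspase 1 cleaves in inflammasomes, and epithelia are known sources of IL-1α. The colony-stimulating factors act on myeloid cells, CSF1 on macrophages and CSF3 on neutrophils.

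The 250 bases before a RefSeq start site (GRCh38.p14) are shown for IL1A and IL1B, the members with the largest positive differences with E. coli 83972, and for IL32, which differed little there. Matches on either strand to 4 motifs are in capitals. The motifs were NF-κB (GGNNTTTCC), AP-1 (TGANTCA), CRE (TGACGTCA) and C/EBP (TTGCNNAA), and no match overlaps another in these windows.
IL1A, chr2:112784494-112784743, minus strand: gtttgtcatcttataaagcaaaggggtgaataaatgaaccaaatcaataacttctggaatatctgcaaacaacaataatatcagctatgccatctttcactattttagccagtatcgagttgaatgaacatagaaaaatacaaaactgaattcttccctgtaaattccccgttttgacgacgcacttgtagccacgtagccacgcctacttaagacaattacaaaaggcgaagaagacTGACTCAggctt
IL1B, chr2:112836780-112837029, minus strand: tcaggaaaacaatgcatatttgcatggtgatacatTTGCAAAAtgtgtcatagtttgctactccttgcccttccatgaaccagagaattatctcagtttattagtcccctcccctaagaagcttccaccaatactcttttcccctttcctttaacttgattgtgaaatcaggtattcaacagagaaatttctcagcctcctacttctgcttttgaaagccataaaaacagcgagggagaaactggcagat
IL32, chr16:3065153-3065402, plus strand: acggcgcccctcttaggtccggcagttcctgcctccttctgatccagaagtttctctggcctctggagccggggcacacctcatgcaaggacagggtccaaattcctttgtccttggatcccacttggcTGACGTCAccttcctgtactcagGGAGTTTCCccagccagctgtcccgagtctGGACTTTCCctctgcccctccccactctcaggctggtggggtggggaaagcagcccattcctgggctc

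The IL1A window held an AP-1 match from 12 to 6 bases before its start site, and the window of a second, overlapping start site held another from 55 to 49 bases before that site. The IL1B window held a C/EBP match from 215 to 208 bases before its start. The IL32 window shown held NF-κB matches from 98 to 90 and from 68 to 60 bases before its start, and a CRE match from 121 to 114 bases before it. The window of a second IL32 start site held no match to any of the motifs. Of 35116 RefSeq windows of this length, 5.48% held the NF-κB motif, 6.57% AP-1, 1.65% CRE and 9.05% C/EBP. A match describes letters alone, and binding was not tested.

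Each value is the log2 level of a probe set, a group of probes for one transcript, as deposited. Where a gene had several probe sets, the one with the highest mean stood for it. Genes whose values all lay below 4.88, the median of the whole table, were left out. Of the 9 members with a probe set 8 were kept, beside 11653 of all 18239 genes. IL1A passed this filter level only with E. coli 83972, so it was kept through the array on which it was high. A gene was counted when it differed by at least 2-fold, 1 on the log2 scale. As a yardstick of technical error, probe sets of the same gene disagreed with an SD of a log2 difference of 0.23, 0.18 and 0.13 in the low, middle and high ranges of level for E. coli 83972 minus control, and 0.42, 0.31 and 0.17 for DRB minus control. This SD contains no variation between cultures.

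The A498 label was set against markers. Of 9 kidney epithelial and renal carcinoma genes 7 had a probe set and 6 were kept, whereas EPCAM lay under the filter level on all 3 arrays. The keratin genes KRT8 and KRT19 read 9.84 and 7.73 with E. coli 83972, 10.47 and 8.53 with DRB, and 10.28 and 8.29 in control. PAX8, a renal lineage factor, read 7.23 with E. coli 83972, 6.10 with DRB and 7.07 in control, but its 4 probe sets averaged 0.35 ± 0.19 and −0.15 ± 0.63 (SD over probe sets) for E. coli 83972 and DRB minus control. Of 9 monocyte and macrophage markers 3 were kept, among them CD68, a lysosomal protein gene, at 9.00, 9.41 and 9.08 on the E. coli 83972, DRB and control arrays, and CD14 read 3.36, 3.40 and 3.33. PTPRC, the pan-leukocyte marker CD45, read 3.43, 3.52 and 3.41, under the filter level on all 3 arrays. In the same list NCAM1, KLRD1 and CD3E were kept. On the E. coli 83972, DRB and control arrays NCAM1 read 7.09, 7.67 and 7.19. KLRD1 read 5.89, 6.00 and 5.86, and CD3E read 4.53, 5.03 and 4.80. The kept markers were 3 of 5 with a probe set for other leukocytes, 2 of 4 for endothelium and 1 of 5 for fibroblasts. Of all genes with a probe set annotated to 1 gene, 11653 of 18239 were kept, so 3 of 5 is near that background. No kept marker of these 5 lists was 2-fold different in either comparison, beside 2.56% and 10.3% of all kept genes.

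Set beside control, the E. coli 83972 array addressed how host transcript levels differ after 4 h with the bacterium. IL1A, the IL-1α gene, was the member counted as at least 2-fold higher, 2.21-fold, with a control value under the filter level. IL1B was 1.75-fold higher and IL18 was 1.83-fold lower, and neither reached 2-fold. The remaining kept members lay between −0.15 and 0.28 on the log2 scale. The counts were 1 of 8 kept members at least 2-fold higher and 0 lower, beside 1.91% of all 11653 kept genes higher and 0.652% lower (2.56% in either direction). At 1.5-fold they were 2 higher and 1 lower, beside 5.19% and 3.06% of kept genes (8.26% in either direction). The median difference was 0.21 over the 8 kept members and −0.027 over all kept genes.

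IL1A read 5.73 on the E. coli 83972 array and 4.59 on the control array, a log2 difference of 1.14. The E. coli 83972 array was the high one, and the control value lay under the filter level, where RMA values are compressed. Among all kept genes 167 had a higher difference. Its only probe set allows no second reading. No multiple of the technical SD is given, because IL1A was kept only through the array on which it was high.

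IL1B read 6.22 with E. coli 83972 and 5.41 in control, a difference of 0.81, and 347 kept genes had a higher one. All 3 of its values were above the filter level, and the difference was 3.57 times the technical SD. IL1B, too, had 1 probe set.

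IL1RN, the antagonist gene, stayed under the filter level on every array in both of its probe sets. They read 4.59 and 4.27 with E. coli 83972, against 4.53 and 4.44 in control. Their differences of 0.063 and −0.17 had opposite signs and were smaller than the technical SD.

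IL18 encodes the IL-1 family cytokine that induces interferon-γ in lymphocytes. It read 6.66 with E. coli 83972 and 7.53 in control, a difference of −0.87, and 109 kept genes had a lower one. The size was 4.77 times the technical SD. Its 1 probe set carries the suffix for probes that can hybridize with other transcripts, so its value is less certain.

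IL32, a cytokine gene named as an interleukin although its product lacks the IL-1 fold, read 8.91 with E. coli 83972 and 8.71 in control, a difference of 0.20. Its probe set has the same suffix as that of IL18, with the same caution. A further 3 probe sets list the symbol IL32 under 2 Entrez identifiers and fall outside the rule. Their differences were 0.16 to 0.33, on the same side of 0.

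As deposited, the receptor chains were near their control values. IL1R1, the signalling receptor of IL-1, read 8.73 with E. coli 83972 and 8.89 in control (−0.15). Its second probe set read 3.74 and 3.47, under the filter level. IL1RAP, the accessory chain shared by several family receptors, read 6.30 and 6.29 (0.018). Over its 4 probe sets the mean difference was −0.040 ± 0.18 (SD over probe sets), with 2 above 0 and 2 below.

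The colony-stimulating factors measured were also close to control. CSF1, which encodes the macrophage factor M-CSF, read 6.45 with E. coli 83972 and 6.16 in control, and its 3 probe sets lay together at 0.25 ± 0.066 (mean ± SD over probe sets). CSF3, which encodes the neutrophil factor G-CSF, read 5.32 and 5.08, a difference of 0.23, in a probe set that again carries the suffix for possible cross-hybridization. Its 3 probe sets spread from −0.17 to 0.23, so they did not share a direction.

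**Figure D1:**
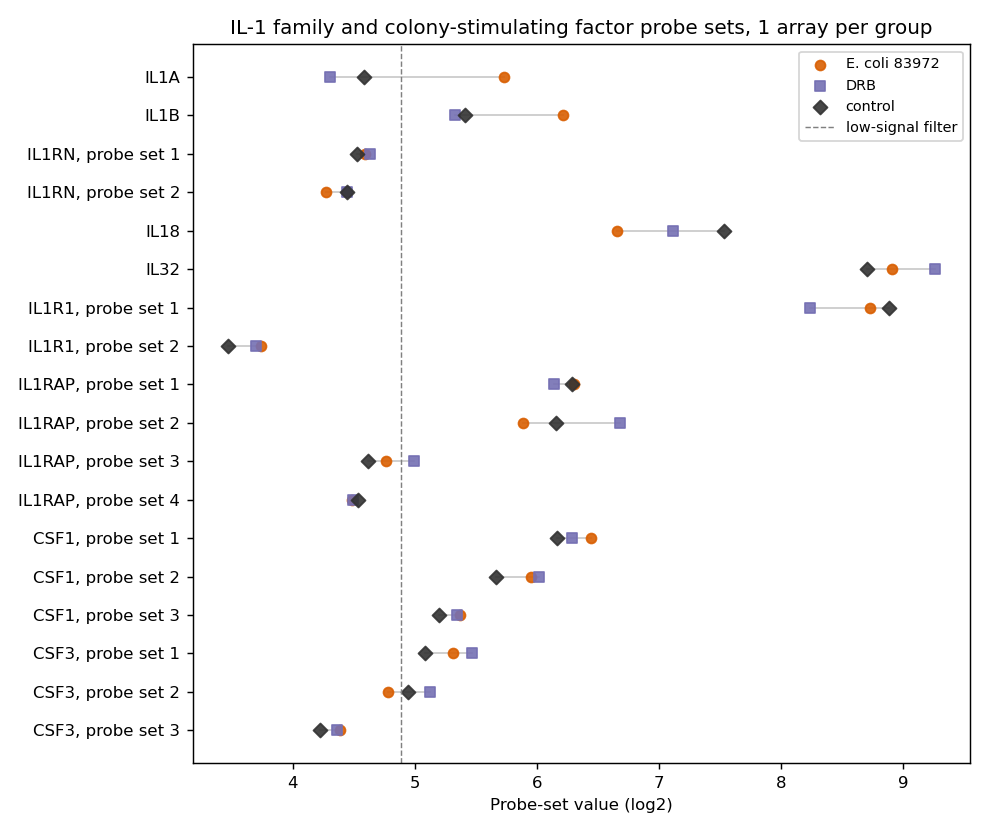
Log2 values of the 18 probe sets of the 9 measured genes on the E. coli 83972 array (circles), the DRB array (squares) and the control array (diamonds), 1 array per group, with grey lines joining the values of a probe set and the dashed line at the filter level of 4.88. IL1A (5.73 with E. coli 83972, 4.31 with DRB, 4.59 in control) spans the widest range, 1.42, and both IL1RN probe sets lie left of the dashed line.

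These calls depend on how the arrays are scaled. The 222 genes higher and 76 lower made 74.5% of the counted genes higher as deposited, against 56.4% with centring on all spike-in controls, 59.8% on poly-A spike-ins and 45.3% on hybridization spike-ins. Spike-ins are transcripts added in fixed amounts. Their median difference was 0.25 for 9 hybridization probe sets and 0.14 for 12 poly-A probe sets, which is subtracted from every gene alike. IL1A was then 1.01 with poly-A centring, 0.97 with all spike-ins and 0.89 with hybridization spike-ins, so it passed 2-fold in the first alone. IL18 was −1.01, −1.04 and −1.12 and passed in all 3. IL1B stayed above 0 (0.67, 0.64 and 0.56), whereas IL32 was −0.056 and CSF3 −0.021 with hybridization spike-ins. IL1R1 was −0.29 with poly-A centring, −0.32 with all spike-ins and −0.41 with hybridization spike-ins.

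The DRB array was set beside the same control for the question of which levels differ after 4 h of blocked elongation. The 2 comparisons therefore share the control array. Of the 8 kept members 0 reached 2-fold. As deposited, IL32 was 1.47-fold higher, IL1R1 was 1.57-fold lower, and IL1A and IL1B lay near control. Among all kept genes 10.2% lay 2-fold or more below control and 0.129% as far above it (10.3% in either direction). At 1.5-fold 1 of 8 members was lower, beside 18.1% of kept genes, and 0 were higher, beside 2.03% (20.1% in either direction). The median difference was −0.11 over the kept members and 0.052 over all kept genes.

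Among the ligands, IL1A read 4.31 with DRB and 4.59 in control, both under the filter level, where differences are compressed. IL1B read 5.33 with DRB and 5.41 in control. The differences of −0.28 and −0.081 were within the technical SD of 0.42. IL18 read 7.12 with DRB and 7.53 in control, a difference of −0.41, which is 1.34 times its technical SD. On the 3 arrays IL18 was thus highest in control, and the DRB value lay between the others.

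IL32 read 9.26 with DRB and 8.71 in control, a difference of 0.55, and 306 of the kept genes had a higher one. The 3 probe sets outside the rule gave 0.56 to 0.71. The DRB array was the highest of the 3 in all 4 of these probe sets. IL1RN gave 0.11 and 0.0071 in its probe sets, both under the filter level.

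IL1R1 read 8.24 with DRB and 8.89 in control, a difference of −0.65 or 3.76 times the technical SD. Its probe set under the filter level differed by 0.23, so the mean over both was −0.21 ± 0.62 (SD over 2 probe sets). IL1RAP probe sets disagreed. The representative one read 6.14 with DRB and 6.29 in control (−0.15), whereas a second of almost the same level read 6.68 and 6.16 (0.52). The mean over its 4 probe sets was 0.18 ± 0.32 (SD over probe sets), and the transcript forms they detect were not analysed here.

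CSF1 read 6.29 with DRB and 6.16 in control, with 0.21 ± 0.13 over its 3 probe sets (mean ± SD). CSF3 read 5.47 and 5.08, with 0.23 ± 0.13 over its 3 probe sets. All 6 probe sets of these genes were above 0 as deposited, by 0.13 to 0.38, but with poly-A centring CSF1 (−0.56) and CSF3 (−0.31) lay below 0. The differences of both representative sets were smaller than the technical SD of 0.42.

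Scaling bears on this comparison too. The spike-in medians were 0.21 for hybridization and 0.69 for poly-A probe sets with DRB. With poly-A centring IL1R1 (−1.34) and IL18 (−1.10) were at least 2-fold lower, and IL32 lay at −0.14. With centring on all spike-ins IL1R1 was −1.17, IL32 0.035, CSF1 −0.39 and CSF3 −0.14. With hybridization centring no member reached 2-fold, and CSF1 was −0.087. IL1A and IL1B were −0.97 and −0.77 with poly-A centring, −0.80 and −0.60 with all spike-ins, and −0.49 and −0.29 with hybridization centring.

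**Figure D2:**
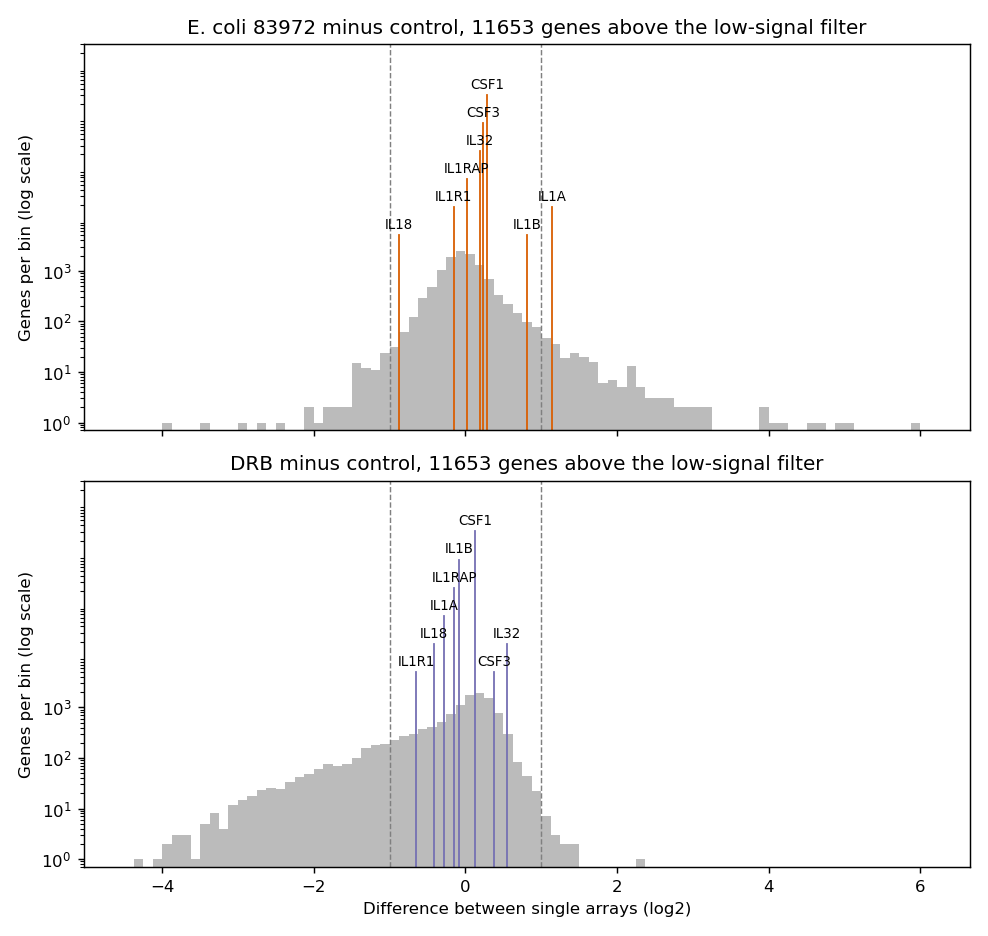
Histograms of the log2 difference from control over 11653 kept genes for E. coli 83972 (top) and DRB (bottom), with genes per bin on a log scale. Coloured lines mark the 8 kept members (the height of a line has no meaning), and dashed lines mark 2-fold, which IL1A passes in the top panel at 1.14 and no member passes in the bottom panel.

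The genes with the pattern most like that of IL1A, by the distance over both differences from control, were KLF7, a Krüppel-like transcription factor gene, and LRCH1, a leucine-rich repeat gene. KLF7 differed by 1.14 with E. coli 83972 and −0.27 with DRB, at a distance of 0.011. LRCH1 differed by 1.13 and −0.24, at a distance of 0.043. Like IL1A, LRCH1 passed the filter level only with E. coli 83972 (5.43, against 4.06 with DRB and 4.30 in control). The likeness rests on 3 arrays, and 38 kept genes lay within a distance of 0.25.

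Other genes of the pathway were taken from 6 lists. None of the 7 other IL-1 family ligand genes, which include IL33 and the IL-36 genes, reached the filter level on any array. Of all 18239 genes 11653 were kept. Of the 9 other receptors and soluble inhibitors 5 were kept and 0 were 2-fold different in either comparison. Of all kept genes 2.56% were so with E. coli 83972 and 10.3% with DRB. The medians of these 5 were 0.0057 for E. coli 83972 and 0.27 for DRB. IL18R1, the ligand-binding chain of the IL-18 receptor, differed by 0.40 and 0.68, the decoy receptor gene IL1R2 by −0.25 and 0.38, the inhibitory receptor gene SIGIRR by −0.056 and 0.27, and the IL-33 receptor gene IL1RL1 by 0.088 and 0.20.

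Of 21 genes that relay the IL-1 receptor signal 19 were kept. With E. coli 83972 2 of them lay 2-fold or more above control and 0 below, beside 1.91% and 0.652% of all kept genes, around a median of 0.099. IRAK2, a kinase of the complex at the receptor, read 9.71 with E. coli 83972, 5.47 with DRB and 7.04 in control. It differed by 2.68 and −1.57, but its second kept probe set gave 0.19 and −0.078. NFKBIZ, which encodes the inducible nuclear IκBζ, read 8.52 with E. coli 83972, 6.50 with DRB and 7.00 in control, differences of 1.52 and −0.49.

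With DRB 3 of these 19 lay at least 2-fold below control and 0 above it, around a median of −0.060. The share over all kept genes was 10.2% lower, so 3 of 19 is near that background. PELI1, a Pellino ubiquitin ligase that binds IRAK proteins, read 4.73 with DRB and 6.74 in control (−2.01, and −2.35 ± 0.47 as mean ± SD over 2 kept probe sets), against 0.15 with E. coli 83972. The DRB value of PELI1 lay under the filter level. MAP3K3, a kinase upstream of NF-κB, read 5.85 and 6.92 (−1.07), but 0.055 in its other kept probe set. The third was IRAK2.

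Of 15 inflammasome and maturation genes 8 were kept. With E. coli 83972, 0 of them were 2-fold different, beside 2.56% of all kept genes. In that comparison 5 of the 8 lay below 0, beside 6380 of the 11653 kept genes, and the median was −0.37, or −0.011 without the filter. CASP1, the protease that matures IL-1β and IL-18, read 5.58 with E. coli 83972, 6.73 with DRB and 6.14 in control (−0.56 and 0.59). The means over its 4 kept probe sets were smaller, −0.35 ± 0.20 and 0.35 ± 0.20 (SD over probe sets). CARD16, whose product resembles the CASP1 prodomain, gave −0.44 and 0.78, and the probes of both genes may share transcripts. The E. coli 83972 value of CARD16 lay under the filter level. CARD8, an inflammasome sensor, gave −0.59 and −1.10 (−1.17 ± 0.10 over 2 kept probe sets with DRB). CARD8 was the 1 member of the list at least 2-fold lower with DRB, where its value of 4.87 lay just under the filter level. The share over all kept genes was 10.2%, so 1 of 8 is near that background. CASP8, an apoptotic caspase, gave −0.37 and −0.58. The median with DRB was 0.19, or 0.021 without the filter, and NLRP1, an inflammasome sensor gene (0.50), reached the filter level with DRB alone.

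**Figure D3:**
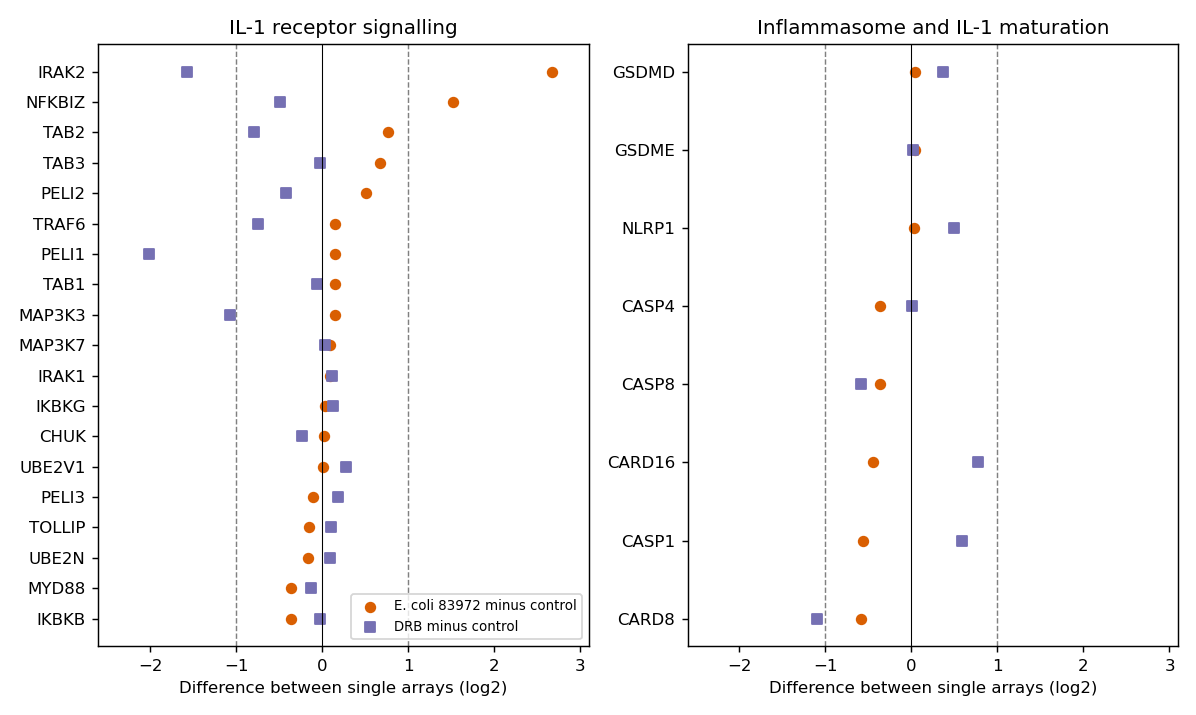
Log2 differences from control of the kept genes for IL-1 receptor signalling (left, 19 genes) and for the inflammasome and IL-1 maturation (right, 8 genes), with circles for E. coli 83972 and squares for DRB, 1 array per group, and dashed lines at 2-fold. IRAK2 (2.68) and NFKBIZ (1.52) lie right of the dashed line with E. coli 83972, and PELI1 (−2.01), IRAK2 (−1.57), MAP3K3 (−1.07) and CARD8 (−1.10) lie left of it with DRB.

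On the side of the colony-stimulating factors, 3 of 7 genes for receptors and their other ligands were kept, and 0 were 2-fold different. Of all kept genes 2.56% were so with E. coli 83972 and 10.3% with DRB. The medians of these 3 were 0.027 with E. coli 83972 and 0.24 with DRB. The M-CSF receptor gene CSF1R differed by 0.023 and 0.34, having reached the filter level with DRB alone, CSF2RB, the shared chain of the GM-CSF receptor, by 0.11 and 0.24, and IL34, another ligand of CSF1R, by 0.027 and −0.010 in the brighter of its probe sets and by 0.70 and 0.62 in the other. Of 10 genes signalling from these receptors 9 were kept. With E. coli 83972, 1 of them was at least 2-fold higher, beside 1.91% of all kept genes, and 0 were lower, beside 0.652%. With DRB, 0 of the 9 differed 2-fold in either direction, beside 10.3% of all kept genes. The other kept probe set of JAK2, a gene of this list, gave −1.18 with DRB, against −0.19 in the representative one. The gene counted as higher was CBL, a ubiquitin ligase of activated receptors. It read 8.33 with E. coli 83972, 6.77 with DRB and 7.27 in control (1.06 and −0.50). Its other kept probe set gave 0.67 with E. coli 83972 and 0.10 with DRB, so the 2 sets had opposite signs with DRB. STAT3, INPP5D and GRB2 differed by 0.35, 0.30 and 0.18 with E. coli 83972 and by 0.45, 0.50 and 0.42 with DRB. The other kept probe set of GRB2 gave −0.015 and 0.062. The medians of the list were −0.0026 and 0.22.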

How the data were processed

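The deposited table holds 49386 probe-set values for each of 3 arrays on a log2 scale, made by the authors with RMA and Partek per the submitters' processing notes. The sources used here state neither versions nor the background step. No further normalization was applied. Array medians were 4.87 to 4.90.

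The platform annotation gave 1 symbol for 45259 probe sets, updated through Entrez identifiers with RefSeq (GRCh38.p14) for 45178. Several symbols, or 1 symbol repeated as for IL32, were listed for 1327, which were assigned to no gene, and 2800 were not listed. Technical error was the disagreement of the 2 brightest kept probe sets over 6317 genes, divided by the square root of 2. Named genes are all members, up to 4 kept genes per list with the largest difference, and the 2 nearest patterns to each member at least 2-fold different. EPCAM, CD14, PTPRC, NLRP1 and JAK2 were added after their values were seen. Members, lists and motifs were chosen with earlier results of these data known. Promoter windows are from RefSeq, which gave 14 for 7 members. Calculations used Python 3.11.15, numpy 2.4.6, pandas 2.3.3 and statsmodels 0.14.6 (loess span 0.4), and were tested on simulated data. Replicates were absent, so the number of arrays limits precision.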

Additional observations from a re-analysis of the deposited data

How the results depend on the processing

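No paired analysis was possible because each group had 1 array, and for the same reason no array could be left out. The count of members with E. coli 83972 (1) was 3 at 1.5-fold, 2 with poly-A centring and 0 with a filter at the 75th percentile, which left 3 members; with all or hybridization spike-ins it was again 1, then IL18 in place of IL1A. With DRB (0) it was 1 at 1.5-fold, 1 with all spike-ins and 2 with poly-A spike-ins. Counts of all kept genes with E. coli 83972 (298) were 962 at 1.5-fold and 104 with probe sets of the plain suffix alone, which keep fewer genes. With DRB (1200) they were 2343 at 1.5-fold, 2425 and 3034 with all and poly-A spike-ins, 410 with plain-suffix probe sets and 704 when all probe sets of a gene were averaged. Of 118 member differences under alternatives, 80 stayed within the technical SD, 38 moved further and 25 had the other sign (none of IL1A, IL1B or IL18). Averaging probe sets could not move the 4 members with 1 probe set (IL1A, IL1B, IL18 and IL32). The plain suffix could not move IL1A, IL1B or IL1R1, whose representative probe sets carry it. Quantile normalization took another probe set for IL1RAP, of almost equal level, with −0.28 for E. coli 83972 and 0.68 for DRB. The alternative for IL32, chosen after seeing the data, gave 0.33 and 0.69. IL1RN and IL1A are limited by signal near background.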

Other observations

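Among the IL-1 signalling genes, TAB2, an adaptor of the kinase TAK1, and TRAF6, the ubiquitin ligase downstream of IRAK kinases, were named after their values were seen. TAB2 read 9.29 with E. coli 83972, 7.73 with DRB and 8.52 in control, differences of 0.77 and −0.79. Over its 4 kept probe sets the means were smaller, 0.49 ± 0.27 and −0.59 ± 0.36 (SD over probe sets). TRAF6 read 5.54, 4.64 and 5.39, differences of 0.16 and −0.75, with its DRB value under the filter level. Neither gene reached 2-fold. In the other promoter windows, IL1RN held an NF-κB match (96 to 88 bases before 1 of its 3 start sites) and an AP-1 match (223 to 217 bases before another). Whether either bears on its level was not tested.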
